A study of Mus musculus with 42 samples.

Results

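The Mre11A/A arrays measured how pre-B cell lines with a hypomorphic (partly working) Mre11 respond to ionizing radiation. They were the 6 arrays, of 42 in the series, whose titles name Mre11A/A cells: 3 lines, each hybridized untreated and 2 h after a dose of 1 Gy. Within a line the 2 arrays share a biological replicate number, and the response was taken as irradiated minus untreated within that number, on log2(MAS5 signal + 16). The whole series holds 7 genotypes with 3 lines each: wild type (WT), Atm-/-, Scid, Mre11A/A, 53bp1-/-, H2ax-/- and Mdc1-/-. All 21 lines, WT included, carry the Eμ-Bcl2 transgene (written Em-Bcl2 in the labels), which holds down apoptosis, and all were made by transforming bone marrow of mice aged 3 to 5 weeks with the pMSCV-v-abl retrovirus, so each is a transformed line and not a primary pre-B cell. Irradiated cells received γ-rays from a cesium source at 0.72 Gy/min; untreated cells were mock-treated and taken at the same 2 h. The labels call the replicates biological but do not say whether the lines came from separate mice, so p-values cover the spread between these lines.

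Mre11 is the nuclease of the Mre11-Rad50-Nbs1 complex, which binds broken DNA ends and activates the kinase ATM there. ATM acts on p53, whose target genes slow the cell cycle, trigger cell death and aid repair, and in B-lineage cells it also signals to the transcription factor NF-kB, whose targets include its own subunits and inhibitors, survival genes and genes of B-cell activation. 53BP1, H2AX and MDC1 act in chromatin around the break, and Scid mice carry a defect in DNA-PK, a kinase needed to rejoin broken ends.

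Promoter sequences are shown for the genes called in irradiated Mre11A/A lines that hold a match to a p53 or NF-kB motif near a start site. Windows run from 250 bases before to 50 bases after a transcription start (RefSeq, GRCm38.p6; written 5′ to 3′ on the gene's strand), and 8 of the 9 called genes had at least 1 of the 12 windows. Both strands were searched for the 10-base repeat of the p53 response element, which alone is only one part of the full element, and for the 10-base kappa-B consensus, and capitals mark the matches. The Cdkn1a window shown is chr17:29090729-29091028 (plus strand), with p53 matches starting 73 and 51 bases before the start. A second Cdkn1a window, chr17:29093519-29093818, belongs to a start further downstream and holds neither motif. The distances given for Cdkn1a are thus from the upstream of these starts. The Aen window shown is chr7:78895677-78895976 (plus strand), with 1 p53 match 10 bases after the start. The other Aen window overlaps it and holds the same match, not a further one. The Ccng1 window is chr11:40755237-40755536 (minus strand), with 1 p53 match 185 bases before the start. The Nfkb2 window shown is chr19:46304487-46304786 (plus strand), with 3 NF-kB matches that start 39, 38 and 11 bases before the start, the first and second overlapping. Both other Nfkb2 windows overlap each other and share 1 match, and 1 of them holds a further match. Among all 32851 windows, 8.36% held a p53 repeat and 4.51% an NF-kB match.
Cdkn1a: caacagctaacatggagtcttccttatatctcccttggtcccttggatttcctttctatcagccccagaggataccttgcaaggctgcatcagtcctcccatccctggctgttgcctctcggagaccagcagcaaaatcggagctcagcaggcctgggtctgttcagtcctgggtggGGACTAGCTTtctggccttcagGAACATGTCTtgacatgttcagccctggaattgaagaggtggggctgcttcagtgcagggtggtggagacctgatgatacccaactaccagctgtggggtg
Aen: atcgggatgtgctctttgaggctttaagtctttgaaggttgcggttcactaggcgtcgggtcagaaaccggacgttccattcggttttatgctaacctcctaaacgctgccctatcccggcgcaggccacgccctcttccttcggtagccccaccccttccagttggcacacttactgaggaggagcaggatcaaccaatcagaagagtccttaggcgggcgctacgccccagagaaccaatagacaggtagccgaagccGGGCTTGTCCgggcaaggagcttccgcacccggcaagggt
Ccng1: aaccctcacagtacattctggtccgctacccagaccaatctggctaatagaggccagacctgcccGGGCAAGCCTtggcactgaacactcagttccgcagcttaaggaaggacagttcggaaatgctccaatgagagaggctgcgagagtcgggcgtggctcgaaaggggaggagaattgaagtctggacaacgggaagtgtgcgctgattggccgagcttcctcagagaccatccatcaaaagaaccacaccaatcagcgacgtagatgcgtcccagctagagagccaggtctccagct
Nfkb2: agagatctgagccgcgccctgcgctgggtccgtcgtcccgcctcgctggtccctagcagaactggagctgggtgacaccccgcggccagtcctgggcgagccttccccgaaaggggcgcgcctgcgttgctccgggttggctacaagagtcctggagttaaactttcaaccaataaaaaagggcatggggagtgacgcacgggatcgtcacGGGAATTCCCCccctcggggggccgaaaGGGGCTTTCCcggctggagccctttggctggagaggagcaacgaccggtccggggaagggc
The windows of Slc19a2, Kifc5b, Ddias and Xist held neither motif, which says only that these letters are not in those windows.

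The targeted transcript was lower in the lines labelled Mre11A/A on the stronger of 2 Mre11a probe sets. The 3 lines had mean signals of 683, 527 and 468 over their 2 arrays, against 1524, 1454 and 1514 in WT (559 ± 111 against 1497 ± 38.2, SD, n = 3), which is 37.3% of WT. The weaker probe set went the other way, with 251 ± 22.5 against 174 ± 43.1 (SD, n = 3). An exact two-sided permutation test gave p = 0.1 for each probe set, the smallest p that 3 lines against 3 allow. After radiation the stronger Mre11a probe set had a log2 change of -0.04 ± 0.08 (SE, adjusted p = 1).

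Pre-B identity was checked with markers. Of 9 pre-B markers measured, 8 lay above the array median on all 6 arrays, among them the surrogate light chain genes Vpreb1 and Igll1, and Rag2 did so on 4. Of the T-cell genes, Cd3d, Cd3e, Cd3g, Cd4, Cd8b1 and Cd5 were above the median on 0 arrays. Cd28 was above it on 4, Cd8a on 5, and Lat, Zap70 and Cd2 on all 6. Csf1r and Cd68 of the myeloid list and Pecam1 and Acta2 of the stromal list were also above it on all 6. Summed pre-B marker signal ran from 55200 to 66200 untreated and from 51800 to 66370 irradiated. The summed T-cell list ran from 4867 to 6182 and from 4318 to 6036, the myeloid list from 637.7 to 723 and from 495.4 to 654.6, the erythroid list from 148.2 to 201.8 and from 93.08 to 215.7, and the stromal list from 628.2 to 764.3 and from 691.1 to 787.1. Of the tested members of these lists, 0 passed the test after radiation. Array medians of the 6 arrays lay between 63.5 and 68.7. Across the series they ran from 62.3 to 115, and the irradiated arrays of Atm-/- line 2 (115) and WT line 4 (103) stood apart, so comparisons with these genotypes are given with and without those lines.

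In irradiated Mre11A/A lines 9 of 12363 genes rose and 0 fell at an adjusted p under 0.05 (limma with the line as a block, Benjamini-Hochberg adjusted), which is 0.0728% of genes. They comprised 5 p53 targets (Cdkn1a, Slc19a2, Ddias, Ccng1 and Aen), 2 genes of the NF-kB lists (Nfkb2 and Pvt1), the kinesin gene Kifc5b and the noncoding RNA Xist. For 8 of the 9, all but Xist, every line was higher after radiation and the irradiated arrays lay above all untreated ones, where 3.00% of all genes had irradiated arrays all above and 3.72% all below the untreated ones. Calling a gene on these same arrays already favours such a separation. At an unadjusted p under 0.05 the response held 547 genes (4.42%), 319 higher (2.58%) and 228 lower (1.84%). Fitted without the pairing, as 42 independent arrays, the same data gave 0 calls, with each of the 9 at an adjusted p of 1 and 137 genes (1.11%) at an unadjusted p under 0.05. The calls thus depend on comparing each line with itself. Untreated signals of the 3 lines ran from 1385 to 4473 for Cdkn1a and from 1498 to 1848 for Aen. The unpaired fit takes its spread from all 7 genotypes, and why the calls were lost was not tested.

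**Figure D1:**
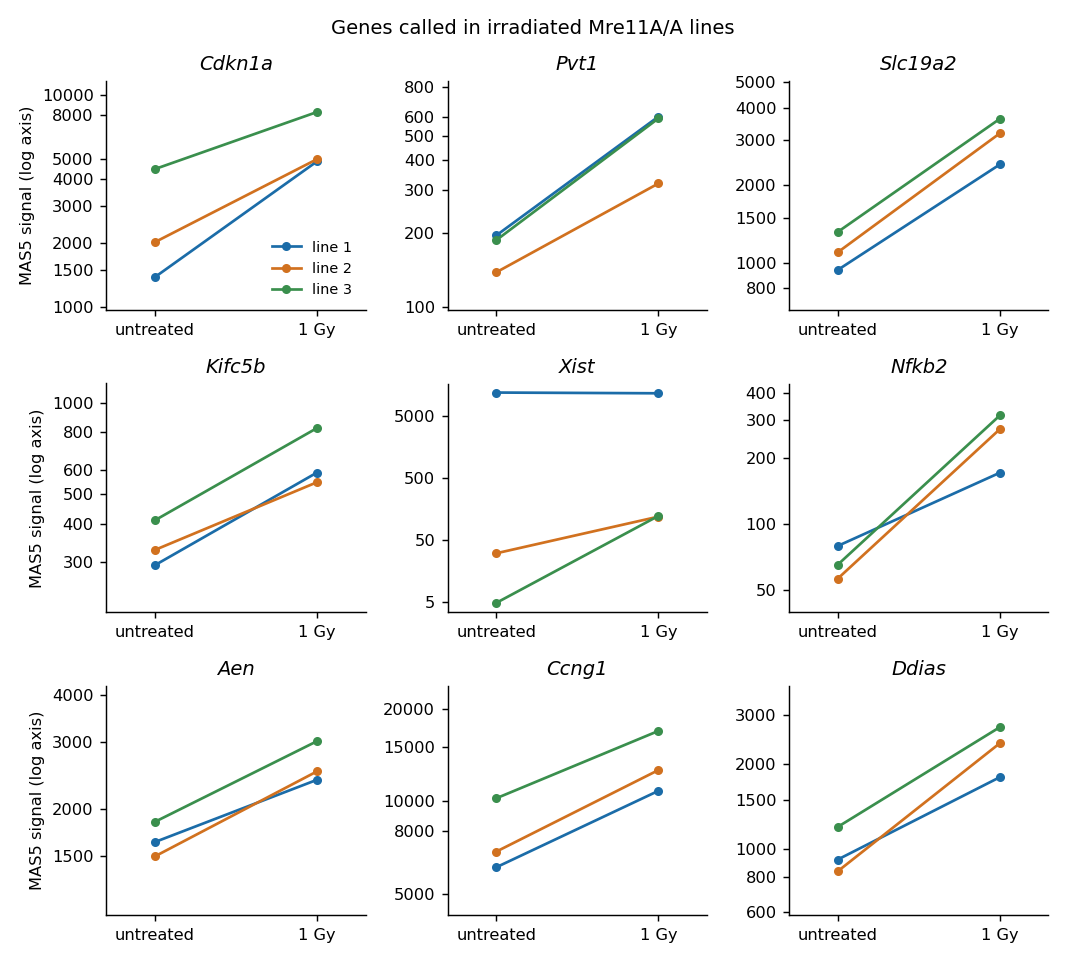
MAS5 signal (log axis) of the 9 called genes in Mre11A/A lines 1, 2 and 3, untreated and 2 h after 1 Gy; each line joins the 2 arrays of a line. Every line rises for 8 genes, while Xist is at 11964 and 11644 in line 1 and differs in lines 2 and 3 at signals of 122 or less.

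Of the 55 p53 targets tested, 5 rose, 23 were higher at an unadjusted p under 0.05 (2.58% of all genes were) and 0 were lower at that level. In 31 of the 55 all 3 lines were higher, against 12.3% of all genes. In 15 of the 55 the irradiated arrays lay all above the untreated ones, against 3.00% of all genes. The median change over these targets was 0.22, beside -0.02 over all genes, and by line it was 0.25, 0.21 and 0.29.

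Among 20 p53 targets of cell-cycle arrest and feedback, Cdkn1a and Ccng1 rose. Cdkn1a encodes p21, the cyclin-dependent kinase inhibitor through which p53 arrests cells in G1. Its signal was 1385, 2024 and 4473 in untreated lines 1, 2 and 3, and 4860, 4978 and 8304 after radiation. The irradiated arrays all lay above the untreated ones, though line 3 started almost as high as the others ended, and the line changes were 1.80, 1.29 and 0.89 (log2 change 1.33 ± 0.18, SE, adjusted p = 0.00193). A second probe set gave a mean change of 1.58, higher in 3 of 3 lines. Ccng1, cyclin G1, had untreated signals of 6104, 6862 and 10227 and irradiated signals of 10808, 12626 and 16921. Its line changes were close to one another, at 0.82, 0.88 and 0.73 (log2 change 0.81 ± 0.16, SE, adjusted p = 0.0475). Mdm2, the ubiquitin ligase that degrades p53, had 1173, 1006 and 1594 untreated and 2135, 1885 and 2909 irradiated. It was higher in each line by 0.85 to 0.90, with no overlap of arrays, and missed the threshold (adjusted p = 0.1). Gtse1, Trp53inp1 and Pidd1, also p53 targets, had log2 changes of 0.66, 0.66 and 0.55 and adjusted p-values of 0.369, 0.369 and 0.56. Smaller changes were measured for Zmat3 (0.55), the phosphatase gene Ppm1d (0.36) and Mdm4 (0.22), each higher in 3 of 3 lines with an adjusted p of 1.

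Of 11 p53 targets of cell death, Ddias and Aen rose and all 11 had changes above 0 (range 0.05 to 1.20, median 0.53). Ddias, also called Noxin, is a DNA damage-induced suppressor of apoptosis. Its signals were 920, 836 and 1201 untreated and 1802, 2378 and 2711 irradiated, which do not overlap (log2 change 1.20 ± 0.24, SE, adjusted p = 0.0484). Aen, an exonuclease gene induced by p53, had 1634, 1498 and 1848 untreated and 2388, 2513 and 3021 irradiated. The 3 lines moved by 0.54, 0.74 and 0.70 (log2 change 0.66 ± 0.13, SE, adjusted p = 0.0475). The BH3-only killers were below the threshold of the test: Bbc3 (Puma) had 284, 597 and 481 untreated and 589, 918 and 1025 irradiated, so that line 1 irradiated did not exceed line 2 untreated (log2 change 0.90 ± 0.21, SE, adjusted p = 0.147). Pmaip1 (Noxa) gave 0.67 ± 0.27 (SE, adjusted p = 0.969), with line changes from 0.29 to 1.01. Fas, the death receptor and a member of the NF-kB list too, was near or below the array medians untreated (13, 46.3 and 76.8) and at 76.8, 69.8 and 154 irradiated. Its log2 change was 1.00 ± 0.39 (SE, adjusted p = 0.938), and the arrays overlapped. Ei24 and Apaf1 were higher in 3 of 3 lines by 0.44 ± 0.13 and 0.33 ± 0.11 (log2, SE), with adjusted p-values of 0.569 and 0.733.

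Of 24 p53 targets of repair and metabolism, Slc19a2 rose. Slc19a2, the thiamine transporter THTR1, had 942, 1102 and 1321 untreated and 2410, 3180 and 3618 irradiated. The lowest irradiated array was well above the highest untreated one, and the lines changed by 1.34, 1.52 and 1.44 (log2 change 1.43 ± 0.24, SE, adjusted p = 0.0146). Polk, a translesion DNA polymerase, lay just outside the threshold at an adjusted p of 0.0509, as did Rnf169, a ubiquitin ligase of the break response that is on none of the lists. Polk signals were 597, 853 and 1013 untreated and 1442, 1820 and 2226 irradiated, again without overlap (log2 change 1.15 ± 0.23, SE). Rnf169 signals were 792, 800 and 1064 untreated and 1376, 1520 and 2129 irradiated (log2 change 0.90 ± 0.18, SE). Sesn2, an inhibitor of mTORC1 signalling, had values of 0.62 in line 1 and 1.63 and 1.62 in lines 2 and 3 (log2 change 1.29 ± 0.29, SE, adjusted p = 0.1). Phlda3, Ddit4 and the excision repair nuclease gene Ercc5 had log2 changes of 0.89, 0.84 and 0.82, each higher in 3 of 3 lines, with adjusted p-values of 0.267, 0.362 and 0.429.

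The NF-kB lists held 44 genes tested, of which 2 rose. At an unadjusted p under 0.05, 10 were higher and 1 was lower (2.58% and 1.84% of all genes were). In 3 of 3 lines 14 were higher and 4 lower (12.3% and 17.0% of all genes), and 6 had irradiated arrays all above and 2 all below the untreated ones (3.00% and 3.72% of all genes). The median change was 0.10, and by line it was 0.04, 0.13 and 0.21, with line 1 lowest. Of the 16 subunits and feedback regulators, Nfkb2 rose. Nfkb2 encodes p100, the precursor of p52, and its signals were 79.6, 56.5 and 65.4 untreated and 172, 272 and 315 irradiated. Line 1 changed least, by 0.98 against 1.99 and 2.02 (log2 change 1.66 ± 0.31, SE, adjusted p = 0.0397). These untreated signals are near the array medians. A second probe set of Nfkb2 was higher in 3 of 3 lines, by a mean of 0.69. Relb, the partner of p52, had 50.7, 90.5 and 61.9 untreated and 95.9, 172 and 178 irradiated (log2 change 0.96 ± 0.42, SE, adjusted p = 1). The inhibitor genes Nfkbie and Nfkbiz gave 0.86 ± 0.27 and 0.53 ± 0.14 (log2, SE), each higher in 3 of 3 lines, with adjusted p-values of 0.637 and 0.336. Nfkbia, the IκBα gene and the classical feedback inhibitor, had 6766, 6308 and 7640 untreated and 7024, 8172 and 8859 irradiated. On the probe set tested its arrays overlapped, and its line values were 0.05, 0.37 and 0.21 (log2 change 0.21 ± 0.10, SE, adjusted p = 1). Other Nfkbia probe sets had mean changes of 0.36, 0.33 and 0.35, each higher in 3 of 3 lines without overlap of arrays. A weak further probe set had a mean change of 0.15 and was higher in 2 of 3 lines.

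Of 28 NF-kB target genes, Pvt1 rose. Pvt1 is a noncoding RNA gene next to Myc and is a p53 target as well as a member of the NF-kB list used here, so its call does not tell the pathways apart. Its signals were 196, 138 and 187 untreated and 602, 320 and 592 irradiated (log2 change 1.42 ± 0.22, SE, adjusted p = 0.0107). Its 4 other probe sets had mean changes from 0.15 to 0.71. Cd40, the costimulatory receptor of B cells, had 56.7, 41.8 and 70.7 untreated and 64.7, 179 and 211 irradiated. Line 1 was at 0.15 while lines 2 and 3 were at 1.75 and 1.39 (log2 change 1.10 ± 0.40, SE, adjusted p = 0.83). The adhesion molecule gene Icam1 was higher by 0.46, 0.57 and 0.59 (adjusted p = 0.94), lymphotoxin beta (Ltb) by 0.09, 0.72 and 0.60, and the inhibitor of apoptosis gene Birc3 by 0.09, 0.33 and 0.31 (adjusted p = 1 for both). In Cd40, Icam1, Ltb, Birc3, Nfkbia and Nfkb2, singled out after their values were seen, line 1 gave the smallest of the 3 changes. Other members of the NF-kB lists went differently: line 1 gave the largest change for Nfkbiz, Fas and Ccl3, and for Pvt1 it lay between lines 2 and 3. Line 1 also differed from lines 2 and 3 in sex-linked transcripts: Xist was at 11964 untreated in line 1, and the Y-linked gene Eif2s3y was at 2470 to 3130 in lines 2 and 3 and at 0.57 and 0.779 in line 1. The part of this difference between lines in the NF-kB values was not tested.

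The remaining called genes were Kifc5b and Xist. Kifc5b, a C-terminal kinesin gene, had 293, 329 and 411 untreated and 590, 548 and 825 irradiated (log2 change 0.89 ± 0.15, SE, adjusted p = 0.0146). It and the mitotic kinesin gene Kifc1 are near-identical copies whose probes may share transcripts, so their values are uncertain as values of single genes. Kifc1 was higher by 0.47, 0.57 and 1.51 in the 3 lines (log2 change 0.85 ± 0.22, SE, adjusted p = 0.308). The Xist call rests on low signals: line 1 had 11964 untreated and 11644 irradiated, line 2 had 30.5 and 119, and line 3 had 4.84 and 122. Its other probe sets did not give 1 direction in lines 2 and 3, with 90.0 to 247 and 79.6 to 186 on the first, and 15.7 to 2.52 and 19.5 to 1.74 on the second.

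Few genes of the other groups passed the test. Of 38 G2/M and mitosis genes, Kifc5b rose, 13 were lower in 3 of 3 lines (17.0% of all genes were) and the median change was -0.04. Of 38 G1/S and replication genes, 0 passed the test, 6 were lower and 0 higher at an unadjusted p under 0.05 (1.84% of all genes were lower), 16 were lower in 3 of 3 lines, and the median change was -0.06. The cyclin E gene Ccne1 was among them, with 1163, 1106 and 1042 untreated and 1028, 776 and 908 irradiated (log2 change -0.29 ± 0.09, SE, adjusted p = 0.733). Of 32 pre-B and light chain genes, 0 passed. Foxo3, a transcription factor of the FOXO family, was higher by 0.62, 0.60 and 0.64 (adjusted p = 0.342), and the recombinase gene Rag1 was lower by 0.24, 0.02 and 0.32 in log2 units (log2 change -0.20 ± 0.18, SE, adjusted p = 1). Of 15 Bcl2 family genes 0 passed; Bcl2l11, which encodes the killer protein Bim, was higher in 3 of 3 lines without overlap of arrays, at 3097, 3342 and 4274 untreated and 5926, 4804 and 6284 irradiated (log2 change 0.67 ± 0.17, SE, adjusted p = 0.237). Myc was lower in 3 of 3 lines, with 5732, 6334 and 3246 untreated and 4372, 5172 and 2468 irradiated (log2 change -0.36 ± 0.12, SE, adjusted p = 0.733). The 34 genes of break sensing and repair, which act mainly as proteins, had a median change of -0.03 with 0 calls, and Chek2, a checkpoint kinase gene, had the largest positive change of that list at 0.27 ± 0.09 (log2, SE, adjusted p = 0.751). Interferon, heat shock, hypoxia and immediate-early genes had medians between -0.09 and 0.03 and 0 calls. The lowest p among genes lower in 3 of 3 lines belonged to 8430426J06Rik, a RIKEN transcript of unknown role, with 129, 93.7 and 125 untreated and 71.5, 27.8 and 46.5 irradiated (log2 change -1.07 ± 0.25, SE, adjusted p = 0.159).

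**Figure D2:**
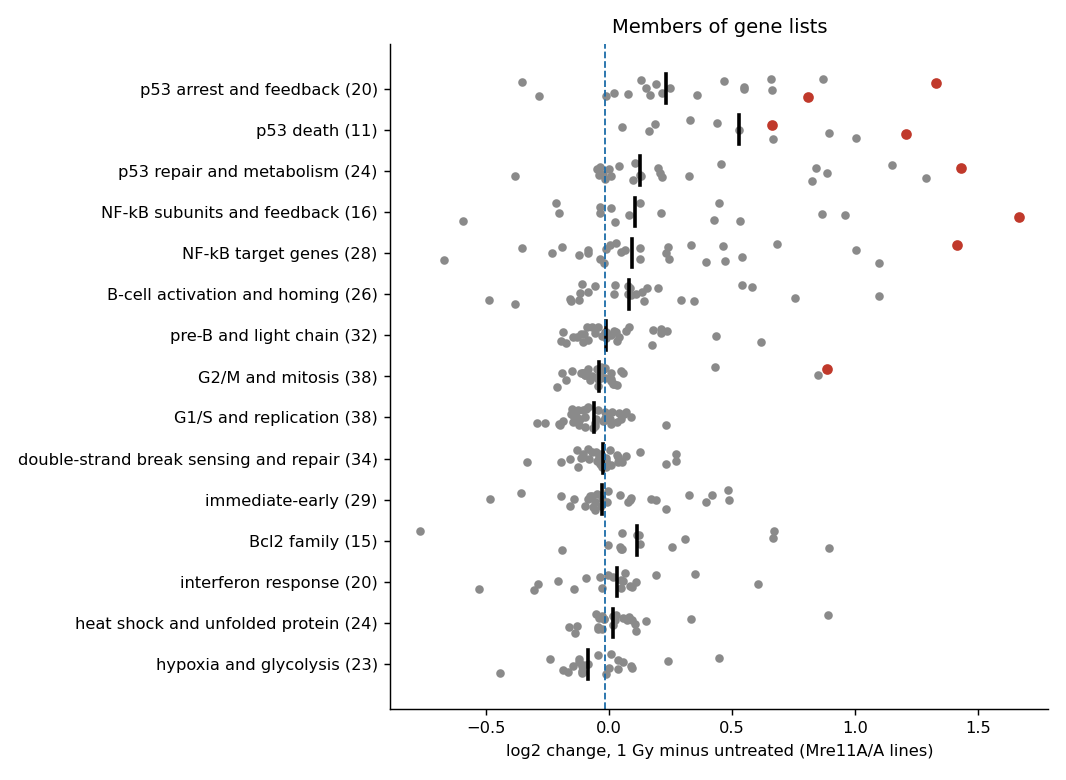
Log2 change after 1 Gy in Mre11A/A lines for every tested member of 15 gene lists (number tested in brackets); red points passed an adjusted p of 0.05, black bars are list medians and the dashed line is the median of all genes (-0.02). The red points are Cdkn1a, Ccng1, Ddias, Aen, Slc19a2, Nfkb2, Pvt1 and Kifc5b, and the p53 death list has the highest median (0.53).

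The spread used by the test came from all 7 genotypes. The median SD of the 3 line changes was 0.18 in Mre11A/A lines, 0.18 in 53bp1-/-, 0.18 in H2ax-/- and 0.17 in Mdc1-/- lines, and 0.24 in WT, 0.29 in Atm-/- and 0.22 in Scid lines. Fitted on the 6 Mre11A/A arrays alone, where 2 residual degrees of freedom remain, 74 genes rose (0.599%) and 5 fell (0.0404%). These included 8 of the 9 calls, 20 of the 55 p53 targets and 5 of the 44 NF-kB genes. Polk, Mdm2, Phlda3, Trp53inp1, Zmat3, Gtse1, Ddit4, Bbc3, Sesn2, Ercc5, Ei24, Ephx1, Pmaip1, Pidd1 and Apaf1 were the added p53 targets, and Nfkbie, Icam1 and Nfkbiz the added NF-kB genes. The 5 that fell there, named after their values were seen, were Myc, Plxna4, Rpp21, Syap1 and Rasa3. In the fit over all arrays, leaving out Mre11A/A line 1, 2 or 3 left 1, 0 and 1 calls. The call without line 1 was Xist and the one without line 3 was Cdkn1a. Across 35 settings of processing and left-out lines, Cdkn1a, Pvt1, Kifc5b and Slc19a2 were called in 30, 29, 29 and 28. Nfkb2, Ccng1, Aen and Ddias were called in 20, 13, 12 and 12, and Xist in 23 of 34. Leaving out a line of another genotype, which changes only the estimate of spread, gave from 4 calls (without Scid line 3 or 53bp1-/- line 2) to 22 (without H2ax-/- line 2), and without WT line 4 and Atm-/- line 2 there were 17 higher genes and 1 lower.

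The comparison with WT asks whether the response differs from that of cells with intact Mre11. In the same paired fit WT lines had 469 calls, and the difference between the responses was called for 1 gene (0.00809%), Mob3a, with 1041 genes (8.42%) at an unadjusted p under 0.05. Mob3a, a MOB family gene of the B-cell activation list, had 529, 387 and 505 untreated and 532, 457 and 569 irradiated in Mre11A/A lines. In WT lines it went from 303, 371 and 428 to 830, 992 and 825. All 3 WT lines changed by 0.92 or more and no Mre11A/A line by more than 0.23 (difference -1.10 ± 0.18, SE, adjusted p = 0.0411). Of the NF-kB genes, 18 of 44 had a smaller change at an unadjusted p under 0.05 and 0 a larger one, where 4.21% of all genes were lower and 4.21% higher. Their median change was 0.10 in Mre11A/A and 0.68 in WT lines. The log2 change of Cd40 was 1.10 against 3.33 in WT (difference -2.23 ± 0.56, SE, adjusted p = 0.199), and that of Nfkbie 0.86 against 2.32 (difference -1.46 ± 0.38, SE, adjusted p = 0.2). That of Nfkbia, on the probe set tested, was 0.21 against 0.92 (difference -0.70 ± 0.14, SE, adjusted p = 0.13). That of Bcl3, an atypical IκB protein gene, was -0.04 against 1.90 (difference -1.94 ± 0.46, SE, adjusted p = 0.19). None of these single NF-kB genes passed the adjustment.

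Among the 55 p53 targets, 6 had a smaller and 3 a larger change at an unadjusted p under 0.05, and the medians were 0.22 and 0.48. Over all genes, 4.21% had a smaller and 4.21% a larger change at that level. Cdkn1a changed by 1.33 against 1.76 in WT, and the 95% interval of the difference, -0.96 to 0.09, includes 0 (adjusted p = 0.668); without WT line 4 and Atm-/- line 2 the difference was -0.68 ± 0.27 (SE, unadjusted p = 0.0199, adjusted p = 0.318). For Slc19a2 the difference was -0.39 (95% interval -1.09 to 0.32) and for Mdm2 -0.29 (-0.85 to 0.28), both intervals including 0. Without those lines the differences were -0.80 (unadjusted p = 0.0324, adjusted p = 0.379) and -0.59 (unadjusted p = 0.0494, adjusted p = 0.441). The p53 target with the smallest p was the stress-response gene Sesn1, at 0.22 against -0.51 in WT (difference 0.73 ± 0.21, SE, adjusted p = 0.258). Pidd1 was at 0.55 against 1.33 in WT (difference -0.78 ± 0.23, SE, adjusted p = 0.277). Of the 9 called genes, 8 were called in WT lines as well, all but Xist, and all 8 had smaller changes in Mre11A/A lines, with 0 differences called.

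**Figure D3:**
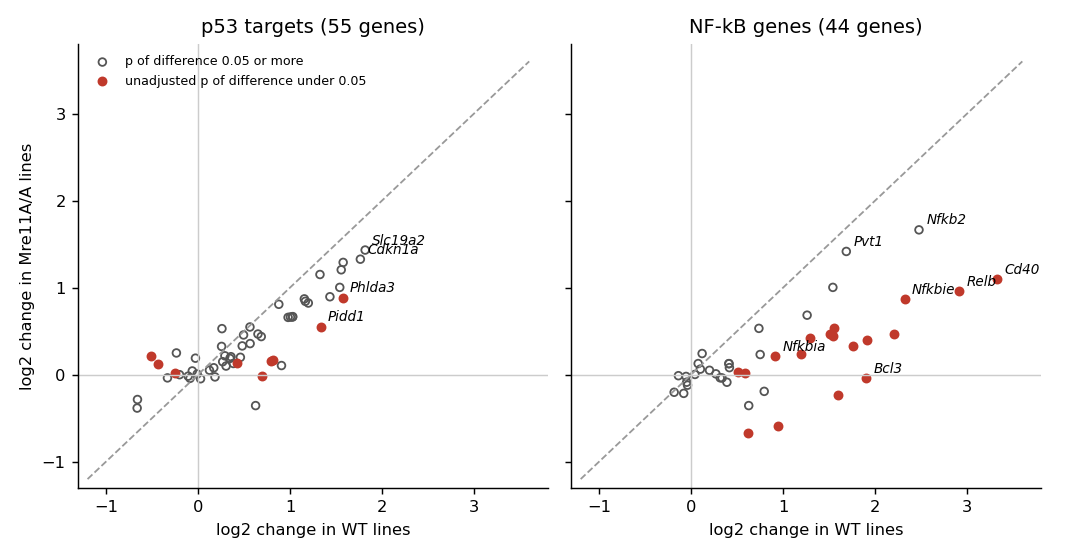
Log2 change in WT lines (horizontal) against Mre11A/A lines (vertical) for 55 p53 targets and 44 NF-kB genes; the dashed line marks equal change and red points have an unadjusted p of the difference under 0.05. Most p53 targets with a large change in WT lie a little under the dashed line, and NF-kB genes such as Cd40, Relb, Nfkbie and Bcl3 lie far under it.

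WT line 4 changed less than WT lines 1 and 3 in several of these genes, such as Spib, an Ets transcription factor gene, at 0.53 against 1.88 and 2.16. Without the line of each array that stood apart (WT line 4 and Atm-/- line 2), 4 genes were called lower in response than WT: Spib (difference -1.58), Mob3a (-1.26), Nfkbia (-0.84, adjusted p = 0.0419) and Gimap6 (-0.93), Gimap6 being named after its value was seen. The NF-kB count was then 19 of 44 lower, and the p53 count was 19 of 55 lower and 2 higher, where 690 of 12363 genes were lower and 703 higher. The p53 count against WT thus moved from 6 to 19 with those lines left out and the NF-kB count from 18 to 19. Centring every array on its median moved the median difference of all genes from -0.02 to 0.22. There 0 genes were called, 13 of 44 NF-kB genes were lower and 0 higher at an unadjusted p under 0.05, 0 of 55 p53 targets were lower and 4 higher, 163 of 12363 genes were lower and 825 higher, and the p53 median difference was 0.05, below that of all genes.

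The comparison with the 53bp1-/-, H2ax-/- and Mdc1-/- lines sets Mre11A/A cells beside lines that lack factors acting later at the break. The same Mre11A/A arrays enter all 3 comparisons between genotypes, which are therefore not independent. Of all genes, 5 differed from the mean of the 3 mutants (0.0404%), 3 with a higher (0.0243%) and 2 with a lower response (0.0162%), and 873 (7.06%) differed at an unadjusted p under 0.05. Mob3a was at 0.14 in Mre11A/A lines and at 0.98 to 1.61 in the 9 lines of the other mutants (difference -1.15 ± 0.15, SE, adjusted p = 0.000829). Bcl3 had 49.3, 79.0 and 45.4 untreated and 29.5, 65.4 and 79.1 irradiated, with line changes of -0.52, -0.22 and 0.63, whereas its values ran from 1.77 to 3.18 in the 9 lines (difference -2.36 ± 0.37, SE, adjusted p = 0.00556). Its signals in Mre11A/A cells are near the array medians. The mitotic genes Aspm, a spindle pole protein gene, and Cenpf, a kinetochore protein gene, were near 0 in Mre11A/A lines and lower in each of the 9 lines. Aspm had 2399, 2464 and 2723 untreated and 2522, 2442 and 2903 irradiated (difference 0.52 ± 0.08, SE, adjusted p = 0.00406), though its 4 other probe sets had mean changes from -0.33 to -0.10 in Mre11A/A lines. Cenpf had 2922, 3127 and 3348 untreated and 2975, 3227 and 3318 irradiated (difference 0.62 ± 0.10, SE, adjusted p = 0.00556). St8sia4, a sialyltransferase gene, was at -0.07 in Mre11A/A lines and at -0.77 to -0.37 in the 9 lines (difference 0.51 ± 0.08, SE, adjusted p = 0.00777). Its other probe set, at lower signals, was lower in 3 of 3 Mre11A/A lines, with a mean change of -0.26.

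The gene lists gave the following counts. At an unadjusted p under 0.05, 17 of 38 G2/M genes had a higher response than in the 3 mutants and 0 a lower one (3.31% of all genes were higher), and the group's median was -0.04 in Mre11A/A lines against -0.20, -0.18 and -0.31 in the 53bp1-/-, H2ax-/- and Mdc1-/- lines. Against WT, whose median was -0.12, 5 of the 38 were higher (4.21% of all genes were). Of the NF-kB genes 21 of 44 were lower and 0 higher (3.75% of all genes were lower), with Birc3 (difference -0.83 ± 0.17, SE, adjusted p = 0.091) and Relb (-2.21 ± 0.49, adjusted p = 0.091) among those with the smallest p. Of the p53 targets 16 of 55 were lower and 1 higher. Without WT line 4 and Atm-/- line 2, 6 genes were called higher and 5 lower, and the counts were 17 of 38 for G2/M genes, 20 of 44 for NF-kB genes and 22 of 55 for p53 targets, where 491 of 12363 genes were higher and 571 lower. With each array centred on its median, 0 genes were called higher and 1 lower, 8 of 38 G2/M genes were higher, and 14 of 44 NF-kB genes and 8 of 55 p53 targets were lower, where 275 of 12363 genes were higher and 186 lower. Cdkn1a changed by 2.41, 1.71 and 2.49 in the 3 mutants against 1.33 in Mre11A/A lines (95% interval of the difference -1.31 to -0.45, adjusted p = 0.144).

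The comparison with Atm-/- sets lines with a weakened activator of the ATM kinase beside lines that lack the kinase. In Atm-/- lines 165 genes were called, of which none was among the 9 called in Mre11A/A lines, and the difference was called for 0 genes. At an unadjusted p under 0.05, 1043 genes (8.44%) differed, 438 (3.54%) being higher and 605 (4.89%) lower in response than in Atm-/- lines. Of the p53 targets 16 of 55 were higher and 0 lower, with medians of 0.22 in Mre11A/A and 0.04 in Atm-/- lines. Of the NF-kB genes 9 of 44 were higher and 2 lower, with medians of 0.10 and 0.05. Cdkn1a had 1337, 296 and 1756 untreated and 1865, 326 and 2306 irradiated in Atm-/- lines, a change of 0.33 against 1.33 (95% interval of the difference 0.47 to 1.52, adjusted p = 0.221). Nfkb2 had 60.04, 122 and 87.6 untreated and 69.2, 34.5 and 64.9 irradiated in Atm-/- lines, a change of -0.55 against 1.66 (difference 2.21 ± 0.44, SE, adjusted p = 0.121). The 9 called genes were picked for a rise on the same Mre11A/A arrays, which favours a larger change than in Atm-/- lines. All 9 had such a larger change at an unadjusted p of 0.0154 or less, and their adjusted p-values ran from 0.121 to 0.491. Without Atm-/- line 2 and WT line 4 this did not hold for Ccng1 (difference 0.44, unadjusted p = 0.0576) and Ddias (difference 0.59, unadjusted p = 0.105). Bbc3 and Fas differed from this pattern in value, with changes of 0.89 and 0.94 in Atm-/- lines beside 0.90 and 1.00 in Mre11A/A lines (95% intervals of the differences -0.61 to 0.61 and -1.08 to 1.22). Without the lines that stood apart their differences were 0.17 ± 0.30 and 0.41 ± 0.58 (SE). The 5 genes that differed from WT or the chromatin-factor mutants were also measured in Atm-/- lines. Their log2 changes there were -0.27 for Mob3a, 0.11 for Bcl3, -0.05 for Aspm, 0.13 for Cenpf and -0.16 for St8sia4. None of them differed from Atm-/- at an adjusted p under 0.05 (adjusted p from 0.542 to 0.959). As 0 genes passed in that comparison, this does not show equal responses. Mob3a was higher than in Atm-/- lines by 0.41 (95% interval 0.03 to 0.78, unadjusted p = 0.0357). Without the lines that stood apart its difference was 0.39 (unadjusted p = 0.056). Without Atm-/- line 2 and WT line 4, 9 genes were called higher and 4 lower in response than in Atm-/- lines. Btg2, an antiproliferative p53 target, was the one member of the p53 and NF-kB lists among them (difference 1.24 ± 0.21, SE, adjusted p = 0.0372). There 10 of 55 p53 targets were higher and 1 lower at an unadjusted p under 0.05, and 8 of 44 NF-kB genes were higher and 4 lower, where 634 of 12363 genes were higher and 796 lower. With each array centred on its median, 22 of 55 p53 targets and 14 of 44 NF-kB genes were higher (687 of 12363 genes were higher and 160 lower), while the median difference of all genes moved from -0.04 to 0.20.

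**Figure D4:**
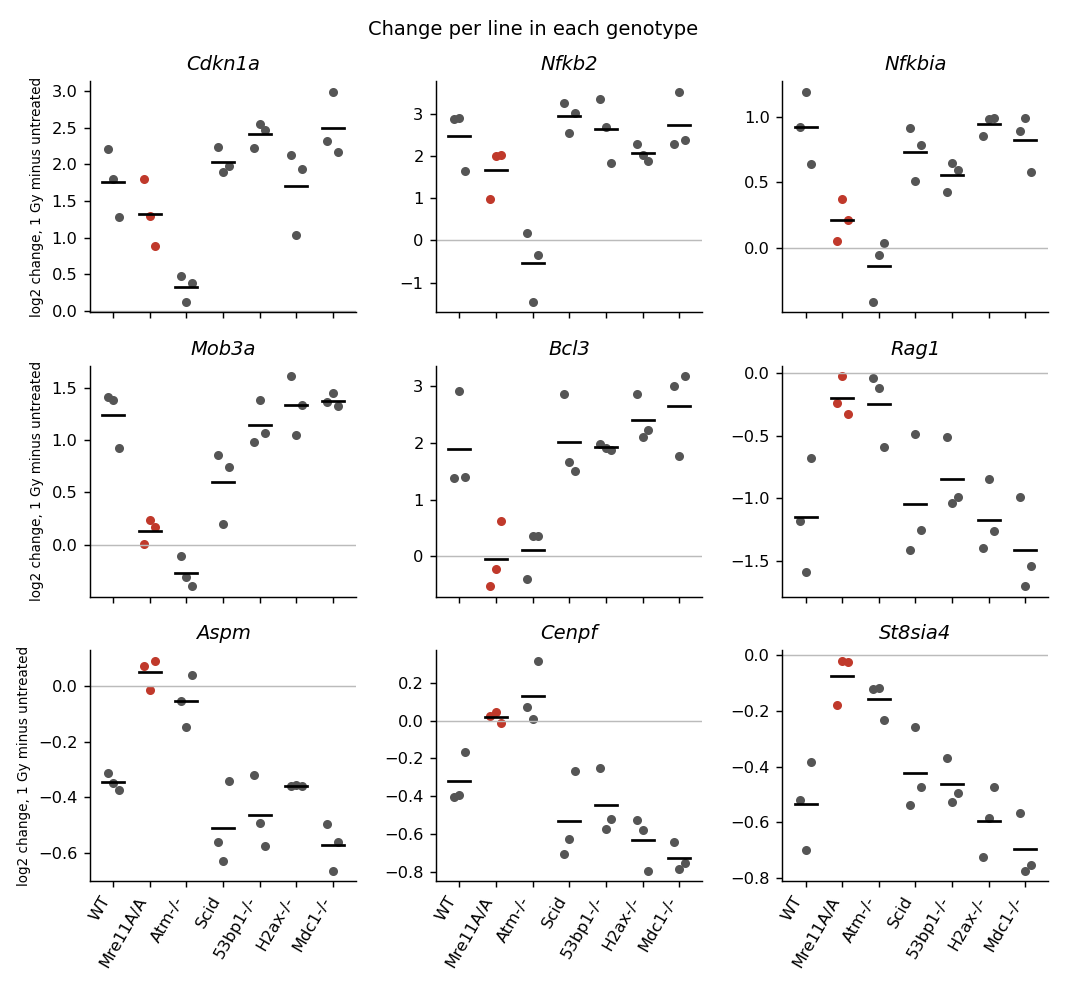
Log2 change after 1 Gy in each line (points) and the mean of 3 lines (bars) for 9 genes in the 7 genotypes, Mre11A/A in red. For Cdkn1a the Mre11A/A mean of 1.33 lies between Atm-/- (0.33) and the other genotypes, while Mob3a, Bcl3, Rag1, Aspm, Cenpf and St8sia4 have means nearer to 0 in Mre11A/A lines than in WT, Scid, 53bp1-/-, H2ax-/- and Mdc1-/- lines.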

How the data were processed

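Total RNA of all 42 samples was labelled by the Affymetrix one-cycle biotin method and hybridized to single-colour arrays, per the labels' protocols. The deposited values are signal intensity per probe set on a linear scale, computed by the authors with MAS5, per the submitters' processing notes; the 2% trimmed mean is 500 on each array, so the values were scaled to a common level. Summaries of this kind do not correct for differences in intensity distribution, and low signals are noisy. The software version was not given in the sources used here, and the number of arrays limits the precision. All 42 columns matched a sample title.

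Of 45101 probe sets, 64 controls were left out, 34945 had 1 gene symbol, 932 had several and 9160 had none in the platform annotation. A probe set was kept where it lay above the array median on at least 3 arrays (28260 kept, 23245 with 1 symbol), and a gene was represented by its probe set with the highest mean over all arrays, leaving 12363 genes for the tests (for 5984 there was a choice among kept probe sets). Values were taken as log2(signal + 16), so changes of low genes are understated.

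The fit used limma 3.58.1 in R 4.3.3 (lmFit, and eBayes with a prior variance that follows intensity) over all 42 arrays, with each of the 21 lines as a block and a radiation effect per genotype, leaving 14 residual degrees of freedom. Differences between genotypes are contrasts of these effects, and p-values are two-sided and Benjamini-Hochberg adjusted over the 12363 genes, with a threshold of 0.05. The labels number the replicates alike within a genotype but do not say that a number marks a line: the pairing was checked with the correlation of deviations from the group means, which was 0.45 to 0.591 for the 3 same-numbered pairs of Mre11A/A arrays and -0.395 to -0.154 otherwise, and 0.358 to 0.647 for all 21 pairs of the series. On simulated data with the same design, the fit recovered 36% of genes changed by 0.5, 62% by 1, 80% by 1.5 and 90% by 2 (log2, 50 genes each), with 2 false among 136 calls. The simulation gave each gene 1 normal spread for all genotypes and no radiation effect outside Mre11A/A. It had many more calls than the real data, so these rates need not hold there.

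The genes named are those called, the 15 higher and 8 lower genes with the smallest p among those moving one way in 3 of 3 lines, the members with the smallest p in each of 20 gene lists (454 genes), and called or smallest-p genes of the comparisons with other genotypes; genes named after their values were seen are marked. The Mre11A/A arrays and the gene lists were chosen with earlier results of these data known. Alternatives covered the pairing, arrays fitted, pseudocount, low-signal filter, scaling, choice of probe set, prior and left-out lines.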

Additional observations from a re-analysis of the deposited data

Results flagged for a closer look

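For 5 genes the radiation response of Mre11A/A lines differed from that of other genotypes by a test of the difference itself (limma with the line as a block, adjusted p under 0.05). Mob3a responded less than in WT lines (difference -1.1 on the log2 scale, adjusted p = 0.0411) and less than in the mean of the 53bp1-/-, H2ax-/- and Mdc1-/- lines (difference -1.15, adjusted p = 0.000829), with a smaller change in each of the 3 Mre11A/A lines than in any line of those 4 genotypes. Mob3a was not called lower than WT when Mre11A/A line 1, 2 or 3 was left out. Bcl3 responded less than in the 3 chromatin-factor mutants (difference -2.36, adjusted p = 0.00556), at signals near the array medians in Mre11A/A lines. Aspm (difference 0.516, adjusted p = 0.00406), Cenpf (difference 0.622, adjusted p = 0.00556) and St8sia4 (difference 0.511, adjusted p = 0.00777) had negative changes in each line of those mutants and changes near 0 in Mre11A/A lines. Other probe sets of Aspm had negative mean changes in Mre11A/A lines. The other probe set of St8sia4 was lower in each of the 3 Mre11A/A lines (mean change -0.26). None of the 5 differed in response from Atm-/- lines at an adjusted p under 0.05 (adjusted p from 0.542 to 0.959), where their log2 changes were -0.27 (Mob3a), 0.11 (Bcl3), -0.05 (Aspm), 0.13 (Cenpf) and -0.16 (St8sia4). As 0 genes passed against Atm-/- lines, this does not show equal responses. Mob3a was higher than in Atm-/- lines by 0.41 (unadjusted p = 0.0357 in the same limma fit). The cause of these differences was not tested.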

How the results depend on the processing

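The number of calls depended on the processing and on single lines. Of gene values under all alternatives, 3514 kept direction and side of the threshold, 160 lost and 74 gained a call, and 5 changed sign, all of them uncalled changes: Bcl3 0.0025 (quantile normalization), 0.204 and 0.0541 (without Mre11A/A line 1 or 2; -0.373 without line 3), Cenpf -0.0052 (centring on the 75th percentile) and Mre11a 0.012 (centring on the median).

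Without the replicate block, that is without the pairing, 0 genes were called higher in the response (9 with it), 0 lower than WT (1 with it), and 0 higher and 0 lower than the chromatin-factor mutants (3 and 2 with it).

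The 9 higher genes of the response became 74 (with 5 lower in place of 0) on the 6 Mre11A/A arrays alone, 4 and 5 with pseudocounts of 1 and 64, 5 with centring on the 75th percentile and 0 with no intensity trend and a robust prior. With no trend and a plain prior there were 0, and with a trend and a robust prior 3, both added after the data were seen. The single gene lower than WT was lost (0 calls) with a pseudocount of 1, quantile normalization, centring on the median, all probe sets tested singly and both priors without a trend. Leaving out Mre11A/A line 1, 2 or 3 also gave 0 genes lower than WT. Centring on the median gave 3 higher and 1 lower than Atm-/- in place of 0 and 0, and 0 higher and 1 lower than the chromatin-factor mutants. Both priors without a trend gave 1 higher and 1 lower there, the filter on all 42 arrays 1 lower, and all probe sets singly 6 lower. Without Atm-/- line 2 and WT line 4 the counts were 17 higher and 1 lower in the response, 4 lower than WT, 9 higher and 4 lower than Atm-/-, and 6 higher and 5 lower than the chromatin-factor mutants.

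Leaving out 1 line at a time, those of other genotypes added after the data were seen, the response had 0 to 22 higher and 0 to 1 lower genes. It had 1, 0 and 1 higher without Mre11A/A line 1, 2 or 3, 15 and 22 without H2ax-/- line 1 and 2, 16 without WT line 4, 5 without Scid line 1 or Mdc1-/- line 3, and 4 without Scid line 3 or 53bp1-/- line 2. The ranges were 0 to 5 higher and 0 to 12 lower against WT, 0 to 2 higher and 0 to 2 lower against Atm-/-, and 0 to 10 higher and 1 to 18 lower against the chromatin-factor mutants, with 5, 12, 10 and 18 without Scid line 1. Mre11a was at 33.2% to 40.4% of WT. The cause of these shifts was not tested. Signals near or below the array medians (62.3 to 115), such as those of Bcl3, Nfkb2 and Xist, are the least precise.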
